A study of Mus musculus with 12 samples.

Results

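De novo lipogenesis is the making of fatty acids from carbohydrate. Citrate exported from mitochondria is cleaved to acetyl-CoA by ATP citrate lyase (Acly), acetyl-CoA carboxylase 1 (Acaca) turns this into malonyl-CoA, and fatty acid synthase (Fasn) builds palmitate from it with reducing power that malic enzyme (Me1) helps to supply. Elovl6 lengthens palmitate, the stearoyl-CoA desaturases Scd1 and Scd2 add a double bond, and transcription of the pathway is driven by SREBP1 (Srebf1) and ChREBP (Mlxipl), with Thrsp, also called Spot 14, as a small accessory protein of lipogenic tissues. The 10 genes were chosen by symbol from the whole table of estimated counts, where each matched 1 of 55281 genes, and all 10 passed the filter on low counts.

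They were measured by bulk RNA sequencing in 4 groups of 3 libraries, all made from the gonadal white fat (GWAT) of male mice. WT mice carried Hoip fl/fl (the gene Rnf31, which encodes the ubiquitin ligase HOIP) without AdipoQ.Cre, and HoipA-KO mice carried the same floxed alleles with AdipoQ.Cre, which deletes in mature adipocytes and leaves the other cells of the tissue intact. Mice of both genotypes started a control diet (CD, 14% fat) or a high-fat diet (HFD, 60% fat) at 6 weeks of age and were fed for 16 weeks. The age given for all of them was 22 to 24 weeks. Each library held RNA pooled from 3 mice. The spread between libraries is therefore a spread between pools.

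Each library held between 30513500 and 60540260 counts, and the lowest count of any lipogenic gene in any library was 197, so depth did not limit these values. Rnf31 stood at 12.8 to 21.2 CPM (counts scaled to a common library total) in WT and at 17.7 to 22.5 CPM in HoipA-KO, which does not check the deletion, because counts per gene do not separate the floxed part and other cells of the tissue keep the gene. WT CD replicate 3 held 7127 CPM of 7 testis germ cell genes, against 4.62 to 228 CPM elsewhere, and the authors' own comparisons leave it out. The comparisons below use the other 11 libraries and are given over all 12 as well. WT CD replicate 2 held 15030 CPM of 10 epididymal genes, nearly all from Crisp1 and Adam7, HoipA-KO HFD replicate 1 held 1313 CPM, and the other libraries held 0.133 to 203 CPM. The 10 adipocyte genes used as a check on the tissue, among them Adipoq, Plin1 and Fabp4, were above the floor of 3 counts in every library.

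HoipA-KO GWAT had lower levels of the whole lipogenic set than WT GWAT. On CD, 10 of 10 genes were lower in HoipA-KO at an adjusted p under 0.05 in edgeR's quasi-likelihood test, where 18.8% of all 18427 genes tested were lower. The fold differences ran from 2.56 for Srebf1 to 16.1 for Elovl6, a value that rests in part on WT CD replicate 2 as given below, and the median log2 fold change was -2.76 against -0.06 for all genes. On HFD, 9 of 10 were lower against 7.62% of all genes, with a median log2 fold change of -1.99 against 0.06, and Scd2 missed the threshold (adjusted p = 0.0504). Among the 11 libraries, every HoipA-KO library was below every WT library of the same diet for all 10 genes in both comparisons. This separation was shown by 27.4% of genes on CD and 23.7% on HFD. With WT CD replicate 3 included it held on CD for 8 genes, all but Acly and Srebf1, against 19.3% of genes. The comparison on CD and the comparison on HFD share no library. Over all 12 libraries the 10 genes remained called on CD, where 19.1% of genes were lower. On HFD 4 were called, against 2.25% of genes, although WT CD replicate 3 is not among the groups compared: it raised the common biological coefficient of variation of the fit from 0.394 to 0.514. The count on HFD also fell to 2 without WT HFD replicate 1, WT HFD replicate 2 or HoipA-KO HFD replicate 3, and to 3 without HoipA-KO HFD replicate 2.

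**Figure D1:**
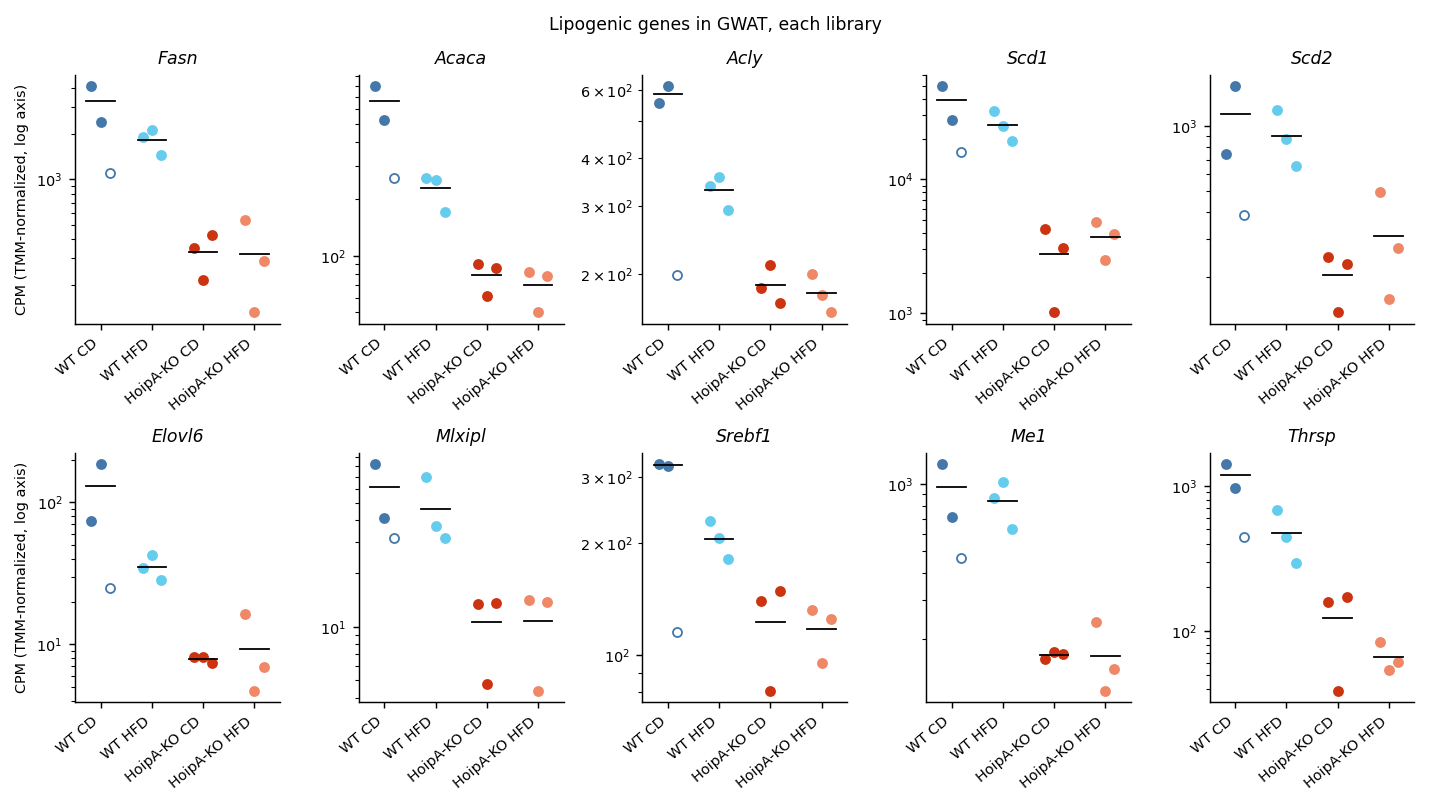
Level of each lipogenic gene in each library, as TMM-normalized CPM on a log axis, by group. Points are libraries, bars are means of the libraries in the main comparisons, and the open point is WT CD replicate 3, which the bars leave out. In every panel the 6 HoipA-KO points lie below the WT HFD points and below the filled WT CD points.

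**Figure D2:**
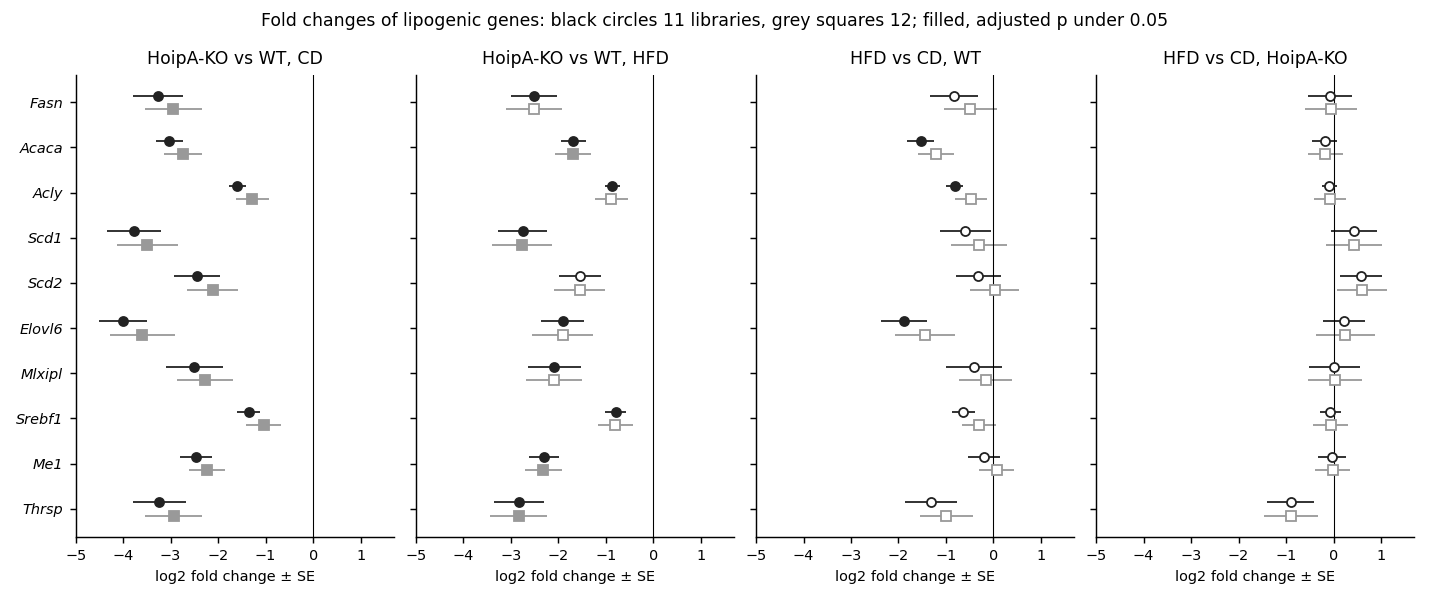
Log2 fold change with its standard error for each gene in 4 comparisons, from 11 libraries (black circles) or all 12 (grey squares), filled where the adjusted p was under 0.05. Points lie left of 0 for all genes in both comparisons of HoipA-KO with WT, while in HoipA-KO the diet comparison has no filled point.

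The genes lie on 6 chromosomes of the GRCm38 build. Fasn (chr11:120805846-120824547, minus strand), Acly (chr11:100476353-100528000, minus), Acaca (chr11:84129672-84401651, plus) and Srebf1 (chr11:60199089-60222581, minus) are on chromosome 11. Scd1 (chr19:44394455-44407879, minus) and Scd2 (chr19:44293674-44306864, plus) are both on chromosome 19. Elovl6 (chr3:129532355-129638495, plus), Mlxipl (chr5:135089890-135138382, plus), Thrsp (chr7:97412938-97417730, minus) and Me1 (chr9:86581371-86695953, minus) are each on a chromosome of their own. No other protein-coding or noncoding gene shares exon sequence on the same strand with them in the GENCODE annotation, except for the microRNA genes Mir5114 in Scd2 and Mir6922 in Srebf1.

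Since the genes moved together, the sequences at their transcription starts were read from RefSeq (build GRCm38.p6), from 250 bases before to 50 after each start. There were 12 windows for 8 of the 10 genes. They were searched on both strands for the core of the sterol response element bound by SREBP, written TCACNCCAC, the E-box CACGTG, the CCAAT box CCAAT and the GC box GGGCGG. Matches to CCAAT were in 7 of 12 windows, of 6 genes, against 37.4% of all 32851 windows, a GC box in 5, of 4 genes, against 35.7%, an E-box in 1 against 7.15% and the sterol response element core in 1 against 1.24%. A match is a description of letters and not a site. The windows of Fasn and Acly, which of the enzymes from citrate to palmitate differed most and least on CD, and both windows of Mlxipl, the ones with the E-box and the sterol response element core, are shown 5′ to 3′ on the strand of the gene with all matches in capitals. In Fasn a CCAAT and its reverse complement overlap, so that the capitals mark 3 matches in 2 runs. The second Mlxipl window lies inside the gene, at a start within it.
Fasn chr11:120824498-120824797 minus strand: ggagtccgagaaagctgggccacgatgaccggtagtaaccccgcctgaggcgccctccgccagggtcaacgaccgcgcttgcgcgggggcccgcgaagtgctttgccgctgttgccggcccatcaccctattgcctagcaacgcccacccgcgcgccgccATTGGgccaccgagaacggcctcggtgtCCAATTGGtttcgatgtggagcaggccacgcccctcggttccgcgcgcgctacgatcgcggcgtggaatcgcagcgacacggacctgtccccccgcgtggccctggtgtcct
Acly chr11:100527951-100528250 minus strand: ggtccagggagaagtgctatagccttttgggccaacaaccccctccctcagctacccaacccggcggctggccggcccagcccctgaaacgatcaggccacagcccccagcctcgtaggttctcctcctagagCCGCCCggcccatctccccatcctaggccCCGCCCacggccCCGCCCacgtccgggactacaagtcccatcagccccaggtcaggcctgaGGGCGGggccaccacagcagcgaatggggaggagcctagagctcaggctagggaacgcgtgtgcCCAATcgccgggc
Mlxipl chr5:135089640-135089939 plus strand: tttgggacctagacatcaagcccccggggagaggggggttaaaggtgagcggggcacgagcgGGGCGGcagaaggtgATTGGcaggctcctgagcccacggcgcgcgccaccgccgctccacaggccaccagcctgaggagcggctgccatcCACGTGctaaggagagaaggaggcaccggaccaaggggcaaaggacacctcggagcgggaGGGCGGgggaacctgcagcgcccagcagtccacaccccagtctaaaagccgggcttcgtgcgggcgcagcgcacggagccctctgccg
Mlxipl chr5:135106641-135106940 plus strand: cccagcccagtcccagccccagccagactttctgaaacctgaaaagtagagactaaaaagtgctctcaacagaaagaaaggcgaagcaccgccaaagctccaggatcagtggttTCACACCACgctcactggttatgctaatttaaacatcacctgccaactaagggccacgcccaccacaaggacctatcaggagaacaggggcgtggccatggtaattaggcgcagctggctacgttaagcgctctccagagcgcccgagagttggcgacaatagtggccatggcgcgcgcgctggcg

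The 3 enzymes that lead from citrate to palmitate were lower on both diets. Acly stood in WT at 555, 615 and 198 CPM on CD and at 338, 357 and 292 CPM on HFD, and in HoipA-KO at 183, 211 and 168 CPM on CD and at 199.8, 177 and 159 CPM on HFD. WT CD replicate 3, the last of its group in each list here, was as low as the HoipA-KO libraries and overlapped with them, while no other WT library did. Acly had a log2 fold change between HoipA-KO and WT of -1.60 ± 0.17 on CD (± SE, edgeR adjusted p = 0.00045) and -0.87 ± 0.16 on HFD (adjusted p = 0.014). Its coefficient of variation between the libraries of the main comparisons was 7.25% to 11.7% in the 4 groups. The 7.25% is from 2 WT CD libraries, and over all 3 the mean was 456.5 CPM with a standard deviation of 225.4 CPM.

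Acaca, the committed step of the pathway, stood in WT at 798, 528 and 257 CPM on CD and at 259, 252 and 171 CPM on HFD, and in HoipA-KO at 90.3, 61.1 and 86.2 CPM on CD and at 82.2, 50.1 and 78.0 CPM on HFD. Groups of the 2 genotypes did not overlap. Acaca had a log2 fold change of -3.03 ± 0.29 on CD (edgeR adjusted p = 0.00045) and -1.69 ± 0.26 on HFD (adjusted p = 0.010). Acacb, its paralog at the mitochondrial membrane, was lower as well, with -2.89 on CD and -1.72 on HFD, and the ratio of Acaca to Acacb lay between 1.79 and 4.53 in all libraries. Reads that both genes share could be split by the estimation of counts.

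Fasn stood in WT at 4158, 2407 and 1095 CPM on CD and at 1904, 2111 and 1449 CPM on HFD, and in HoipA-KO at 350.4, 215 and 431 CPM on CD and at 538, 132 and 288 CPM on HFD. Even WT CD replicate 3, the lowest WT library, was above the highest HoipA-KO library. Fasn had log2 fold changes of -3.27 ± 0.52 on CD (edgeR adjusted p = 0.0015), or 9.64-fold lower, and -2.51 ± 0.48 on HFD (adjusted p = 0.016). On HFD the call was lost over 12 libraries (adjusted p = 0.0502).

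Me1, which makes NADPH in the cytosol, stood in WT at 1231, 709 and 464 CPM on CD and at 865, 1019 and 629 CPM on HFD, and in HoipA-KO at 163, 175 and 172 CPM on CD and at 239.9, 118 and 147 CPM on HFD. The 3 HoipA-KO CD libraries lay close together, with a coefficient of variation of 3.62%. Me1 had log2 fold changes of -2.47 ± 0.33 on CD (edgeR adjusted p = 0.00077) and -2.31 ± 0.31 on HFD (adjusted p = 0.0087). The difference between these values, 0.16 ± 0.45 on the log2 scale, did not pass its own test.

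The desaturases differed widely in level. Scd1, the most abundant gene of the set, stood in WT at 49916, 27818 and 16120.1 CPM on CD and at 32146, 24911 and 19205 CPM on HFD, and in HoipA-KO at 4254, 1018 and 3083 CPM on CD and at 4805, 2511 and 3924 CPM on HFD. The lowest WT library, WT CD replicate 3, was still well above the highest HoipA-KO library. Scd1 had log2 fold changes of -3.77 ± 0.56 on CD (edgeR adjusted p = 0.0011) and -2.75 ± 0.52 on HFD (adjusted p = 0.015).

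Scd2 stood in WT at 748, 1538 and 389.9 CPM on CD and at 1190.1, 871 and 658 CPM on HFD, and in HoipA-KO at 248, 138 and 230.4 CPM on CD and at 496, 159 and 273 CPM on HFD. The highest WT CD value is that of replicate 2, the library with epididymal transcripts, and the highest HoipA-KO HFD value is that of replicate 1, which also held them. Their part in the result was not tested. For Scd2, the log2 fold change was -2.44 ± 0.48 on CD (edgeR adjusted p = 0.0043) and -1.54 ± 0.44 on HFD.

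In WT the ratio of Scd1 to Scd2 was 66.7, 18.1 and 41.4 on CD and lay between 27.0 and 29.2 on HFD. The HoipA-KO libraries had ratios of 17.2, 7.39 and 13.4 on CD and of 9.68, 15.8 and 14.4 on HFD. All 6 HoipA-KO libraries were below all 6 WT libraries, by a narrow margin where WT CD replicate 2 is concerned. Scd1 and Scd2 are close paralogs, so reads that both share could be split by the estimation of counts, and the ratio is a description with no test. The minor desaturases Scd3 and Scd4 had means of 1.86 and 0.34 CPM over all libraries, and Scd3 reached 17.5 CPM in WT CD replicate 2 alone.

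**Figure D3:**
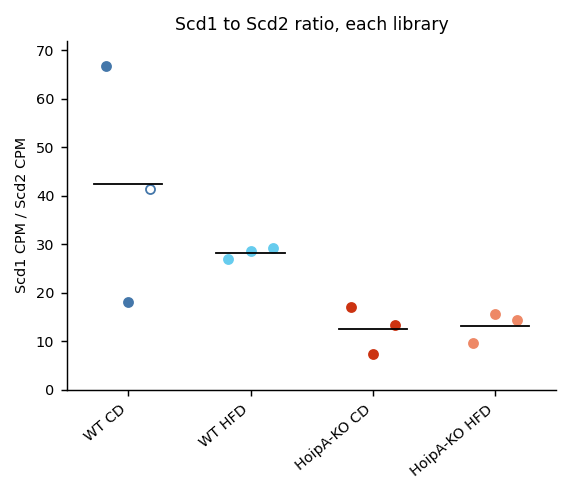
Scd1 CPM divided by Scd2 CPM in each library, by group, with the mean of the libraries in the main comparisons as a bar and WT CD replicate 3 as the open point. HoipA-KO libraries lie between 7.39 and 17.2 and WT libraries between 18.1 and 66.7.

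Elovl6 stood in WT at 73.7, 186 and 24.8 CPM on CD and at 34.2, 42.6 and 28.2 CPM on HFD, and in HoipA-KO at 8.12, 8.11 and 7.33 CPM on CD and at 16.3, 4.71 and 6.92 CPM on HFD. Its 3 WT CD libraries differed more than those of any other lipogenic gene, again with replicate 2 highest. It had the largest difference of the set on CD, -4.00 ± 0.51 on the log2 scale (edgeR adjusted p = 0.00063), and -1.90 ± 0.45 on HFD (adjusted p = 0.031). The value on CD ran from -4.53 without WT CD replicate 1 to -3.18 without WT CD replicate 2. In the latter case it was smaller than those of Scd1 (-4.13), Fasn (-3.61), Thrsp (-3.485) and Acaca (-3.29). Over all 12 libraries the value on CD was -3.60 ± 0.68.

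Both transcription factors were lower on both diets. Srebf1 stood in WT at 324, 320.2 and 116 CPM on CD and at 229, 206 and 181 CPM on HFD, and in HoipA-KO at 140.1, 80.5 and 148 CPM on CD and at 133, 95.4 and 125 CPM on HFD. WT CD replicate 3 overlapped with the HoipA-KO CD libraries. Srebf1 had log2 fold changes of -1.35 ± 0.24 on CD (edgeR adjusted p = 0.0026) and -0.79 ± 0.22 on HFD (adjusted p = 0.048), the smallest of the set in both comparisons. Counts per gene cannot separate the SREBP1a and SREBP1c transcripts.

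Mlxipl stood in WT at 82.5, 40.9 and 31.6 CPM on CD and at 69.7, 37.1 and 31.8 CPM on HFD, and in HoipA-KO at 13.5, 4.77 and 13.7 CPM on CD and at 14.2, 4.37 and 13.9 CPM on HFD. Replicate 2 was lowest in both HoipA-KO groups. Mlxipl had log2 fold changes of -2.50 ± 0.59 on CD (edgeR adjusted p = 0.0099) and -2.08 ± 0.55 on HFD (adjusted p = 0.041). The ChREBP alpha and beta transcripts were counted together.

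Thrsp stood in WT at 1409.6, 963 and 446 CPM on CD and at 676, 446 and 294 CPM on HFD, and in HoipA-KO at 159, 38.7 and 172 CPM on CD and at 83.6, 54.2 and 60.9 CPM on HFD. Thrsp had log2 fold changes of -3.24 ± 0.56 on CD (edgeR adjusted p = 0.0022) and -2.82 ± 0.53 on HFD (adjusted p = 0.015), the largest of the set on HFD. Its paralog Mid1ip1 had an estimate of -1.35 on CD and 0.35 on HFD and passed the test in neither, with 262 CPM in WT CD replicate 2 and 43.5 to 78.5 CPM in all other libraries.

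Levels can be compared between genes only per length, so CPM was divided by the length of the merged exons in kb. Scd1 led in every group, with means in WT of 7945 CPM per kb on CD and 5196 on HFD, and in HoipA-KO of 569 on CD and 766 on HFD. In WT CD it was followed by Thrsp (542), Fasn (299.9), Me1 (252), Scd2 (209), Acly (111), Srebf1 (57.2), Acaca (38.8), Elovl6 (20.2) and Mlxipl (11.1), all in CPM per kb. Fasn, Me1 and Scd2 were not separated beyond the spread of the libraries, nor were Elovl6 and Mlxipl, and the other neighbours did not overlap. This order in WT CD rests on 2 libraries. WT CD replicate 3, left out here, was the lowest of its group for every lipogenic gene. With it included, every pair of neighbours except Scd1 and Thrsp overlapped. In HoipA-KO CD, Thrsp, Me1, Scd2, Acly, Fasn and Srebf1 lay in a chain of overlapping neighbours from 56.3 down to 21.8 CPM per kb. In HoipA-KO HFD the chain was Scd2, Me1, Acly, Thrsp, Fasn and Srebf1, from 56.7 to 20.9 CPM per kb. Acaca, Mlxipl and Elovl6 were the lowest in every group.

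The diet had a smaller effect in WT. All 10 estimates of HFD against CD in WT were below 0, with a median log2 fold change of -0.73 against 0.00 for all genes, and 3 genes passed the test, where 5.47% of all genes were lower. These were Acaca (-1.53 ± 0.28, edgeR adjusted p = 0.0098), Acly (-0.82 ± 0.17, adjusted p = 0.016) and Elovl6 (-1.88 ± 0.48, adjusted p = 0.032). Thrsp (-1.32 ± 0.54) and Srebf1 (-0.64 ± 0.24) had unadjusted p under 0.05 and did not pass after adjustment. Me1 was least different, with -0.20 ± 0.33. Its estimate was 0.27 without WT CD replicate 1, where Mlxipl was 0.20, and without WT CD replicate 2 that of Scd2 was 0.29. For 6 genes, namely Fasn and the 5 that passed or had an unadjusted p under 0.05, each WT HFD library was below both WT CD libraries, a separation that 18.7% of genes showed. This comparison rests on 2 WT CD libraries, which also serve as controls for HoipA-KO on CD. Over all 12 libraries 0 of 10 passed in edgeR, where 5.97% of genes were lower, and 0 of the 10 were separated, against 10.4%. Leaving out WT CD replicate 2 left 1 gene called, leaving out the replicate 2 of HoipA-KO CD gave 5, and with only the 2 groups compared in the fit 0 passed.

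In HoipA-KO, HFD against CD gave no call by edgeR or by DESeq2 among the 10 genes, and 0 had an unadjusted p under 0.05. Among all genes tested edgeR called 0, DESeq2 called 7, and 415 had an unadjusted p under 0.05 in edgeR, so that 0% of all genes were called. The estimates ran from -0.90 ± 0.49 for Thrsp to 0.58 ± 0.43 for Scd2, and the libraries of the 2 diets overlapped for all 10 genes, while 2.49% of genes were lower and 3.42% higher without overlap.

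The difference between the diets in the effect of the genotype was tested with an interaction term. All 10 estimates were above 0, meaning a larger fall in HoipA-KO on CD than on HFD, from 0.16 ± 0.45 for Me1 to 2.10 ± 0.66 for Elovl6. None passed in edgeR, where 3.91% of all genes were called and 0.331% in this direction. Acaca (1.34 ± 0.38, edgeR adjusted p = 0.086), Acly (0.73 ± 0.23, adjusted p = 0.11) and Elovl6 (adjusted p = 0.10) had unadjusted p under 0.05, and these 3 passed in DESeq2. Without WT CD replicate 1, 1 gene passed in edgeR and the estimates of Mlxipl (-0.18) and Me1 (-0.29) were below 0, as were Me1 without HoipA-KO HFD replicate 1 (-0.069) and Thrsp without HoipA-KO CD replicate 2 (-0.0022). The Elovl6 estimate ran from 1.28 to 2.62 with each library left out, and its lowest value over the alternatives was 0.73. Acaca, Acly and Elovl6 are also the 3 genes that were lower on HFD in WT, which uses the same WT libraries.

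In bulk tissue, fewer adipocytes and less RNA per adipocyte cannot be told apart. The 10 adipocyte genes were themselves lower in HoipA-KO, 10 of 10 on CD (median log2 fold change -1.92) and 9 of 10 on HFD (-2.03). Of all genes, 18.8% were lower on CD and 7.62% on HFD. Over all 12 libraries 8 were lower on CD (-1.63), against 19.1% of genes, and 7 on HFD (-2.04), against 2.25%. The adipocyte genes had a summed level of 11590 to 40350 CPM in WT and 5299 to 8741 CPM in HoipA-KO. Of 9 macrophage genes, 8 were higher on CD, where 18.9% of all genes were, and 5 on HFD, where 4.2% were, and over all 12 libraries edgeR called 8 and 0, with 6 at an unadjusted p under 0.05 on HFD. They had a summed level of 361 to 661.5 CPM in WT CD, 1678 to 5342 CPM in WT HFD and 6450 to 10700 CPM in HoipA-KO. The part of these changes in the lipogenic result was not tested beyond the scaling that follows.

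The lipogenic genes were therefore also set against the adipocyte genes, by scaling each library so that the mean log2 CPM of the 10 adipocyte genes was equal. On this scale the median of all genes moved to 1.67 on CD and 2.04 on HFD. On CD, Fasn (-1.45 ± 0.40, edgeR adjusted p = 0.0084), Acaca (-1.22 ± 0.28, adjusted p = 0.0032), Scd1 (-1.97 ± 0.41, adjusted p = 0.0021), Elovl6 (-2.53 ± 0.61, adjusted p = 0.0043) and Thrsp (-1.51 ± 0.47, adjusted p = 0.015) were lower in HoipA-KO than the adipocyte genes, so 5 of 10, where 2.55% of all genes were lower and 66% higher. Mlxipl (-0.66 ± 0.44), Me1 (-0.59 ± 0.32) and Scd2 (-0.97 ± 0.55) did not pass, and Acly (0.10 ± 0.42) and Srebf1 (0.31 ± 0.36) had estimates above 0. The same 5 genes passed over all 12 libraries, where 4.69% of genes were lower. The value of Elovl6 rests in large part on WT CD replicate 2. Relative to the adipocyte genes, Elovl6 stood at -4.61, -2.02 and -4.54 in WT CD and at -5.64 to -5.02 in HoipA-KO CD. Scd2 stood at -1.27, 1.03 and -0.57 in WT CD and at -0.93 to -0.46 in HoipA-KO CD, so only replicate 2 was above that range.

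On HFD edgeR called 0 of the 10 lower than the adipocyte genes, where 0.326% of all genes were lower, and no estimate below 0 had an unadjusted p under 0.05. Acly (1.13 ± 0.38, edgeR adjusted p = 0.017) and Srebf1 (1.18 ± 0.32, adjusted p = 0.0055) were higher, as were 84.6% of all genes, a larger share than 2 of 10. The other 8 ran from -0.81 ± 0.43 for Thrsp to 0.39 ± 0.50 for Scd2. In WT, 1 gene was lower on HFD than on CD on this scale, Acaca (-1.40 ± 0.28, adjusted p = 0.038), where 1.36% of all genes were. The interaction gave 0 calls in edgeR among the 10 and among all genes, with an unadjusted p under 0.05 for Acaca and Elovl6, and 5 calls without WT CD replicate 1. The counts on this scale were unstable on HFD, with 1 call when WT HFD replicate 1 or HoipA-KO HFD replicate 2 was left out and 4 calls when it was HoipA-KO CD replicate 2. In WT the 1 call became 4 without WT CD replicate 1 and 0 without WT CD replicate 2, WT HFD replicate 2 or 3, any HoipA-KO CD replicate or HoipA-KO HFD replicate 3.

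**Figure D4:**
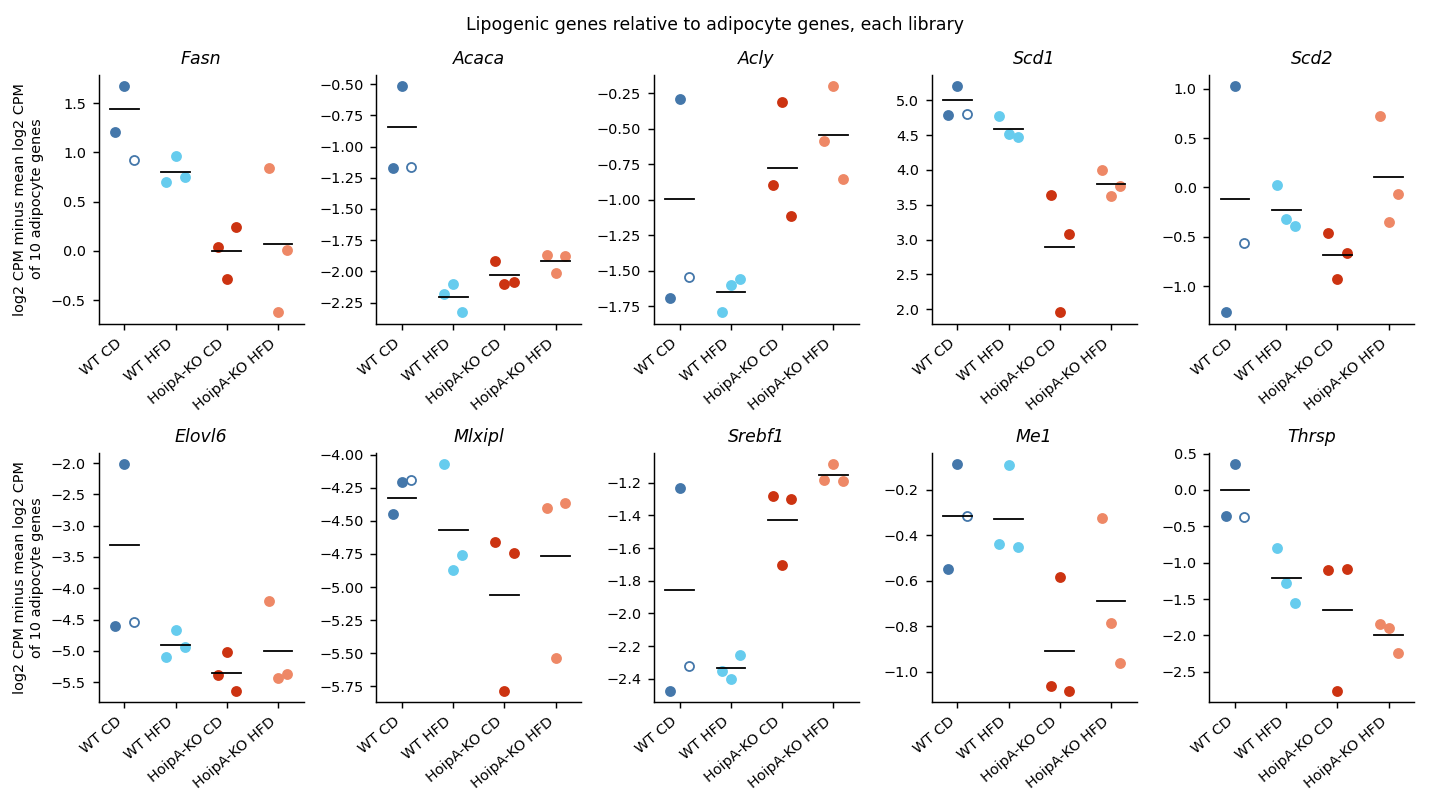
Each lipogenic gene relative to the adipocyte genes in each library, as log2 CPM minus the mean log2 CPM of 10 adipocyte genes, by group, with means as bars and WT CD replicate 3 as the open point. Scd1 lies at 1.96 to 3.64 in HoipA-KO CD against 4.48 to 5.21 in WT, while Srebf1 lies at -1.70 to -1.09 in HoipA-KO and at -2.47 to -2.25 in WT apart from WT CD replicate 2.

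Genes that supply citrate and acetyl-CoA to the pathway were mostly lower in HoipA-KO. In the lists that follow, a gene counted as higher is to be read against 18.9% of all genes on CD and 4.2% on HFD, and one counted as lower against the 18.8% and 7.62% given above. Over all 12 libraries the shares were 15.6% higher and 19.1% lower on CD, and 0.531% higher and 2.25% lower on HFD. Of 13 tested genes of the list for citrate and acetyl-CoA supply, 12 were lower in HoipA-KO on CD and 9 on HFD, and none was higher. The list also held Acacb, Mid1ip1 and Mcat, which are not genes of that supply, and Acacb and Mcat are among the 12. Pyruvate carboxylase (Pcx, -2.20 ± 0.32 on CD and -1.95 ± 0.30 on HFD), the citrate carrier Slc25a1 (-1.70 ± 0.32 and -1.44 ± 0.30) and the pyruvate dehydrogenase subunit Pdha1 (-1.23 ± 0.21 and -0.78 ± 0.19) passed on both diets, while citrate synthase (Cs, -0.83 ± 0.24 and -0.71 ± 0.22) passed on CD only, and the difference between the diets did not pass. Over all 12 libraries the counts were 9 on CD and 2 on HFD. Relative to the adipocyte genes the list had a median of 0.58 on CD, with 2 lower and 3 higher, and of 1.18 on HFD, with 0 lower and 8 higher.

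The list of NADPH supply held genes other than Me1, among them the mitochondrial malic enzymes Me2 and Me3. Of 12 genes, 3 were lower on CD and 2 on HFD, and the median log2 fold change was 0.24 on CD and -0.14 on HFD. With 12 libraries edgeR called 0 lower on either diet, where 2 on CD and 1 on HFD had an unadjusted p under 0.05, and 1 higher on CD. The most abundant were transketolase (Tkt, -0.57 ± 0.23 on CD), Pgd (0.81 ± 0.32) and Taldo1 (0.38 ± 0.33) of the pentose phosphate pathway, which did not pass on CD, and cytosolic malate dehydrogenase (Mdh1, -1.14 ± 0.21), which did.

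Of 16 genes of elongation and desaturation, 6 were lower and 1 higher on CD, and 3 were lower and 1 higher on HFD. With 12 libraries CD gave 3 lower and 1 higher, and HFD 2 lower and 0 higher. The most abundant were Fads3 (-1.24 ± 0.36 on CD and -1.88 ± 0.34 on HFD), the elongation cycle enzymes Hsd17b12 (-0.68 ± 0.20 and -0.83 ± 0.19) and Hacd2 (-1.95 ± 0.33 and -1.66 ± 0.31), all of which passed on both diets, and Tecr (-1.33 ± 0.28 and -0.72 ± 0.26), which passed on CD. In WT CD, Tecr stood at 169, 383 and 77.6 CPM, highest in replicate 2, against 98.7 to 118 CPM in HoipA-KO CD. WT CD replicate 3 was thus below every HoipA-KO CD library for Tecr. The largest estimates, those of Elovl2 and Scd3, rest on WT CD replicate 2, and these 2 genes were singled out after their values were seen.

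Genes of the response to glucose were split. Of 11, 5 were lower and 1 higher on CD, and 4 were lower and 1 higher on HFD. With 12 libraries 4 were lower and 2 higher on CD, and on HFD edgeR called 0, where 4 lower and 1 higher had an unadjusted p under 0.05. The glucose transporter Slc2a4 (-2.48 ± 0.40 on CD and -1.72 ± 0.37 on HFD), hexokinase 2 (Hk2, -2.41 ± 0.30 and -1.65 ± 0.28) and glycerol-3-phosphate dehydrogenase (Gpd1, -0.90 ± 0.29 and -1.50 ± 0.27) were lower on both. Txnip, a glucose-induced gene of many cell types and the most abundant of the list, had estimates of -0.10 ± 0.35 and -0.06 ± 0.31.

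Regulators of SREBP and ChREBP other than the 2 factors were called in both directions. Of 20, 3 were lower and 6 higher on CD, and 1 was lower and 1 higher on HFD, with medians of 0.10 and 0.01. With 12 libraries CD gave 2 lower and 7 higher, and HFD 1 lower and 0 higher. Insig1, which holds SREBP in the endoplasmic reticulum and is itself an SREBP target, was lower on both diets (-0.71 ± 0.23 and -1.78 ± 0.22). The protease gene Mbtps1, the liver X receptor gene Nr1h3 and its partner Rxra did not pass in either comparison, with Mbtps1 at 0.00 ± 0.11 on CD.

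Cholesterol synthesis is driven by SREBP2. Of its 20 genes, CD showed 4 lower and 2 higher, and HFD 6 lower, with medians of 0.09 and -0.55. The balance on CD turned over all 12 libraries, to 2 lower and 4 higher with a median of -0.01, and 4 were lower on HFD. Hmgcs1 had 0.28 ± 0.26 on CD and was lower on HFD (-1.46 ± 0.23), and its interaction passed (-1.74 on the log2 scale). Sc5d (-1.04 ± 0.28 and -1.91 ± 0.27) and Fdft1 (-1.65 ± 0.20 and -0.70 ± 0.19) were lower on both diets, and Fdps (-0.82 ± 0.41 and -0.43 ± 0.37) passed on neither. The estimates of the interaction for the 10 lipogenic genes had the opposite sign over the 11 libraries.

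**Figure D5:**
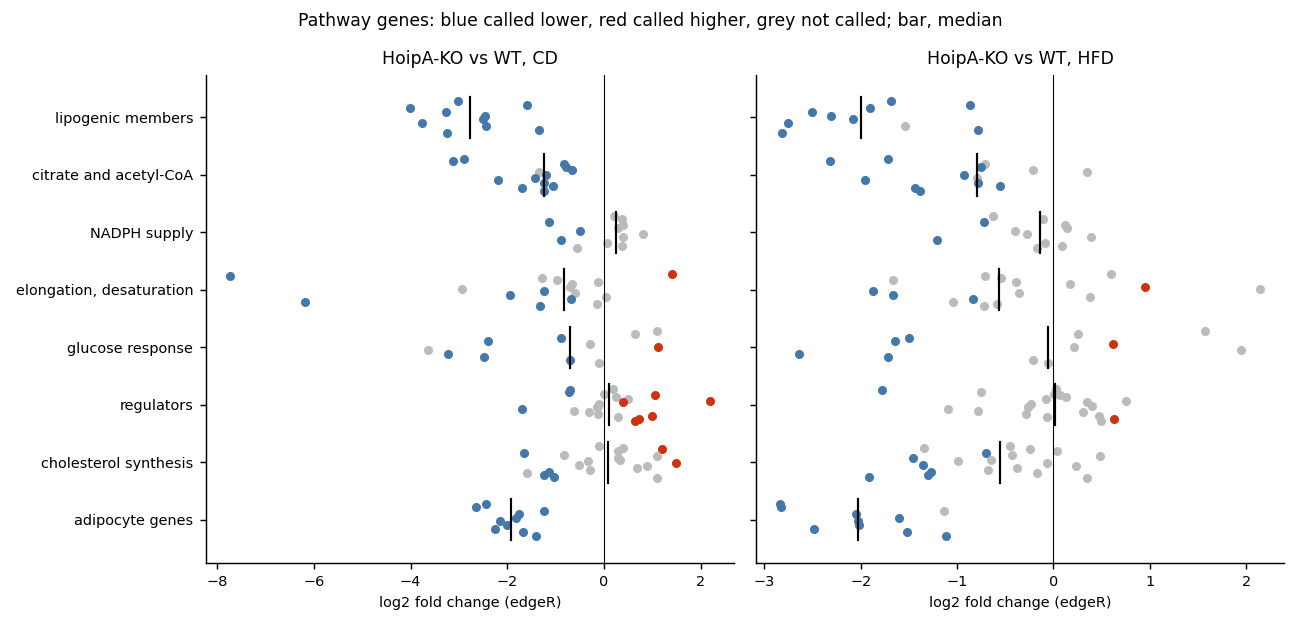
Log2 fold change of HoipA-KO against WT for each tested gene of 8 lists, on CD and on HFD, in blue where called lower, in red where called higher and in grey where not called, with the list median as a bar. The axes of the 2 panels differ in range, and the lipogenic genes have a median of -2.76 on CD and -1.99 on HFD, next to -1.92 and -2.03 for the adipocyte genes.

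Fasn was compared with 10396 other genes with a mean of at least 10 CPM, by Pearson's r of log2(CPM + 1) across 11 libraries. Libraries share their group, so r mostly follows the difference between genotypes and is given as a description. The 10 genes with the highest r were Cdo1 (0.991), Tlcd1 (0.991), Coq9 (0.991), Rbp4 (0.990), Pcx (0.989), Gstk1 (0.987), Ces1d (0.987), Phgdh (0.987), Pigq (0.987) and Mccc2 (0.985). Over all 12 libraries 9 of them kept r of 0.979 or more, and Pigq fell to 0.747. The other lipogenic genes had r from 0.897 for Acly to 0.973 for Me1, which ranked 67 among the genes compared.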

How the data were processed

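GWAT of WT and HoipA-KO mice on CD or HFD was sequenced as stranded, poly(A)-selected bulk libraries of 3 pooled mice. Per the submitters' processing notes, reads were trimmed with Trim Galore 0.6.7, aligned with STAR 2.7.10a on GRCm38 and quantified with Salmon 1.5.2, and the authors deposited these estimated counts per gene without normalization. The methods name a human assembly, but the gene identifiers are from mouse. The authors' DESeq2 tables, which hold fold changes and p-values, were not used.

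Estimated counts were rounded and low ones removed by filterByExpr. After TMM normalization they were fitted in 1 model of the 4 groups with edgeR 4.0.16 (R 4.3.3, prior count 0.125). In a check on simulated data only part of the changed genes were called, fewer than first required. The requirement was relaxed after that result was seen. A gene that did not pass may therefore still differ. Contrasts were tested with the quasi-likelihood test and Benjamini-Hochberg adjustment over all genes at 0.05. Log2 fold changes are given ± SE. CPM values are TMM-normalized on 1 scale over 12 libraries. The main comparisons leave out WT CD replicate 3, as the authors' comparisons do. Rows without a gene symbol held 0.015% of the counts and were kept in the fit under their identifiers. Libraries were not labelled as separate experiments beyond their replicate number, so p-values measure the spread between pools.

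The 10 genes and all lists were chosen with earlier results of these data known. From each pathway list the 4 genes with the highest mean CPM are named, whatever their change, and 10 genes are named for likeness to Fasn. Alternatives were DESeq2 1.42.0 as size factors or as test, library size alone, no filter or at least 10 counts, protein-coding genes only, other WT CD libraries, a replicate block, only the groups compared, a threshold of 0.01 and each library left out. Exon lengths are from GENCODE M21 and windows from RefSeq.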

Additional observations from a re-analysis of the deposited data

How the results depend on the processing

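Apart from the scaling to adipocyte genes, 9 or 10 genes were called in HoipA-KO against WT on CD under every alternative run, with Srebf1 or Mlxipl as the 1 lost. Apart from that scaling, no estimate of HoipA-KO against WT changed sign on either diet. That scaling put Acly and Srebf1 above 0 on CD (0.10 and 0.31) and Acly, Srebf1, Acaca, Scd2 and Elovl6 above 0 on HFD, with Acly (1.13) and Srebf1 (1.18) called higher. On HFD 4 genes were called over 12 libraries, 2 at 0.01, 3 with WT CD replicates 1 and 3, 5 with replicates 2 and 3, and 2 to 10 with each library left out. For HFD against CD in WT, 0 were called over 12 libraries, with the replicate block over 12 libraries, with only the groups compared and with either other pair of WT CD libraries, 1 at 0.01, and 1 to 5 with each library left out. The interaction had 3 calls in DESeq2 and 0 to 1 with each library left out. Relative to adipocyte genes, 5 were called on CD, and leaving out each library gave 4 to 6 calls on CD and 1 to 4 on HFD. It gave 0 to 4 for HFD in WT and 0 to 5 for the interaction, and the median of the adipocyte list gave 0 for HFD in WT. The median log2 fold change of all genes on CD moved from -0.06 to -0.21 over 12 libraries. Genes called higher were 35.5% of all calls on HFD and 53% with library size alone, and for HFD in WT 63.1% and 75.7%. Same-numbered libraries deviated together (r over 0.1) in 5 of 15 pairs, with r from -0.477 to 0.372. Libraries of different numbers were not set beside them, so this cannot decide whether the numbers pair them. With the replicate number as a block, 10, 9, 2, 0 and 0 genes were called in HoipA-KO against WT on CD and on HFD, HFD against CD in WT and in HoipA-KO, and the interaction, and over 12 libraries 9, 6, 0, 0 and 0.

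Without that scaling, the signs that changed were in the diet comparisons and the interaction, among estimates that were not called. The cause was not tested. For HFD against CD in WT (log2), with WT CD replicates 2 and 3 Fasn was 0.084, Scd1 0.24, Mlxipl 0.38 and Me1 0.54. With replicates 1 and 3 Scd2 was 0.68. Over 12 libraries Scd2 was 0.023 and Me1 0.063, and with the block 0.0027 and 0.14. With each library left out Scd2 ran from -0.73 to 0.29, Mlxipl ran from -0.83 to 0.20 and Me1 ran from -0.54 to 0.27. In HoipA-KO, library size alone gave Fasn 0.063, Acly 0.025, Srebf1 0.027 and Me1 0.099, no filter gave Mlxipl -0.0018 and the replicate block Mlxipl -0.0071. With each library left out Fasn ran from -0.65 to 0.29, Acly ran from -0.16 to 0.027, Elovl6 ran from -0.42 to 0.53, Mlxipl ran from -0.33 to 0.39, Srebf1 ran from -0.29 to 0.087 and Me1 ran from -0.35 to 0.16. For the interaction, WT CD replicates 2 and 3 gave Fasn -0.14, Mlxipl -0.36, Srebf1 -0.0043, Me1 -0.56 and Thrsp -0.35, replicates 1 and 3 gave Scd2 -0.085 and Me1 -0.0036, 12 libraries gave Me1 -0.080, and the replicate block gave Me1 -0.019 and over 12 libraries -0.22. With each library left out Mlxipl ran from -0.18 to 0.85, Me1 ran from -0.29 to 0.51 and Thrsp ran from -0.0022 to 0.82.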
